A study of Mus musculus with 2 samples.

Results

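Nr4a2 and 3 genes used as markers of cortical layer 6b, Cplx3, Nxph4 and Moxd1, were followed across a brain section taken 3 days and another taken 28 days after controlled cortical impact (CCI). They are 4 of the 19070 genes counted. They were picked by symbol from results of these same sections, and Nr4a2 was picked because its ratio of injured to opposite side ran in opposite directions at the 2 times. Those ratios are therefore given as a description.

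Nr4a2 (Nurr1) is an orphan nuclear receptor of the NR4A family, induced by activity in many neurons, required for midbrain dopamine neurons, and a lasting marker of claustrum, endopiriform nucleus and deep cortical neurons. Layer 6b is the thin deepest sheet of the cortex, lying on the white matter, and holds what remains of the subplate, the earliest-born cortical neurons. The claustrum is a sheet of excitatory neurons between the lateral cortex and the striatum, and the endopiriform nucleus lies below it. Cplx3 encodes a complexin, which binds the SNARE complex in transmitter release, Nxph4 a neurexophilin, a secreted ligand of neurexins, and Moxd1 a monooxygenase of the copper type related to dopamine beta-hydroxylase.

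The mice were C57Bl6 males, aged 3 months when injured. Their cortex was struck on 1 side by a piston through an opening in the parietal bone (CCI, a model of traumatic brain injury), and 1 section per time was measured on a Visium HD array, on which probes to fixed tissue are counted as unique molecular identifiers (UMIs) in bins of 16 µm. Each time is 1 section, so no value has a replicate and no test between the times or sides was possible. All intervals are exact 95% intervals that cover counting error only. No sham or uninjured section is among the files used here, and the opposite side belongs to the injured brain. The files held 120615873 UMIs at 3 days and 82422389 at 28 days, with a median of 836 and 596 UMIs per bin. A bin can hold several cells or part of one, so fewer cells of a type and less RNA per cell cannot be told apart.

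The array caught unequal widths of the 2 sides. At 3 days 2.08 mm of the injured and 4.62 mm of the opposite side were captured, and at 28 days 3.84 mm of the injured and 2.86 mm of the opposite side, measured from the column that splits the sides. Lateral cortex beyond 2.86 mm was thus present on the opposite side only at 3 days and on the injured side only at 28 days.

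Nr4a2 (chromosome 2, 57106830 to 57124003, minus strand), Cplx3 (chromosome 9, 57599992 to 57606281, minus strand), Nxph4 (chromosome 10, 127525473 to 127534559, minus strand) and Moxd1 (chromosome 10, 24223517 to 24302790, plus strand) are placed on GRCm38. The sections held 5004 Nr4a2 UMIs at 3 days and 3165 at 28 days. The counts were 1187 and 881 for Cplx3, 1382 and 973 for Nxph4, and 553 and 344 for Moxd1. Levels are given as CPM, the UMIs of a gene scaled to 1000000 UMIs of all genes in the same bins, and are compared between places for 1 gene, not between genes, whose probes differ.

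A large share of the Nr4a2 UMIs lay in 3 small places. Claustrum and endopiriform bins, layer 6b bins and habenula bins together held 49.7% of the Nr4a2 UMIs at 3 days (95% interval 48.3 to 51.1) and 56.2% at 28 days (54.4 to 57.9), though these bins held 3.91% and 4.46% of the UMIs of all genes. Regions were assigned from marker genes that exclude the 4 genes described. The claustrum and endopiriform region was the largest source, with 1596 of 5000 UMIs in bins kept (31.9%, 30.6 to 33.2) at 3 days and 879 of 3159 (27.8%, 26.3 to 29.4) at 28 days. Layer 6b held 724 UMIs (14.5%, 13.5 to 15.5) at 3 days and 407 (12.9%, 11.7 to 14.1) at 28 days. The habenula, a pair of small nuclei beside the midline above the thalamus, held 163 UMIs (3.26%, 2.79 to 3.79) and 489 (15.5%, 14.2 to 16.8).

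**Figure D1:**
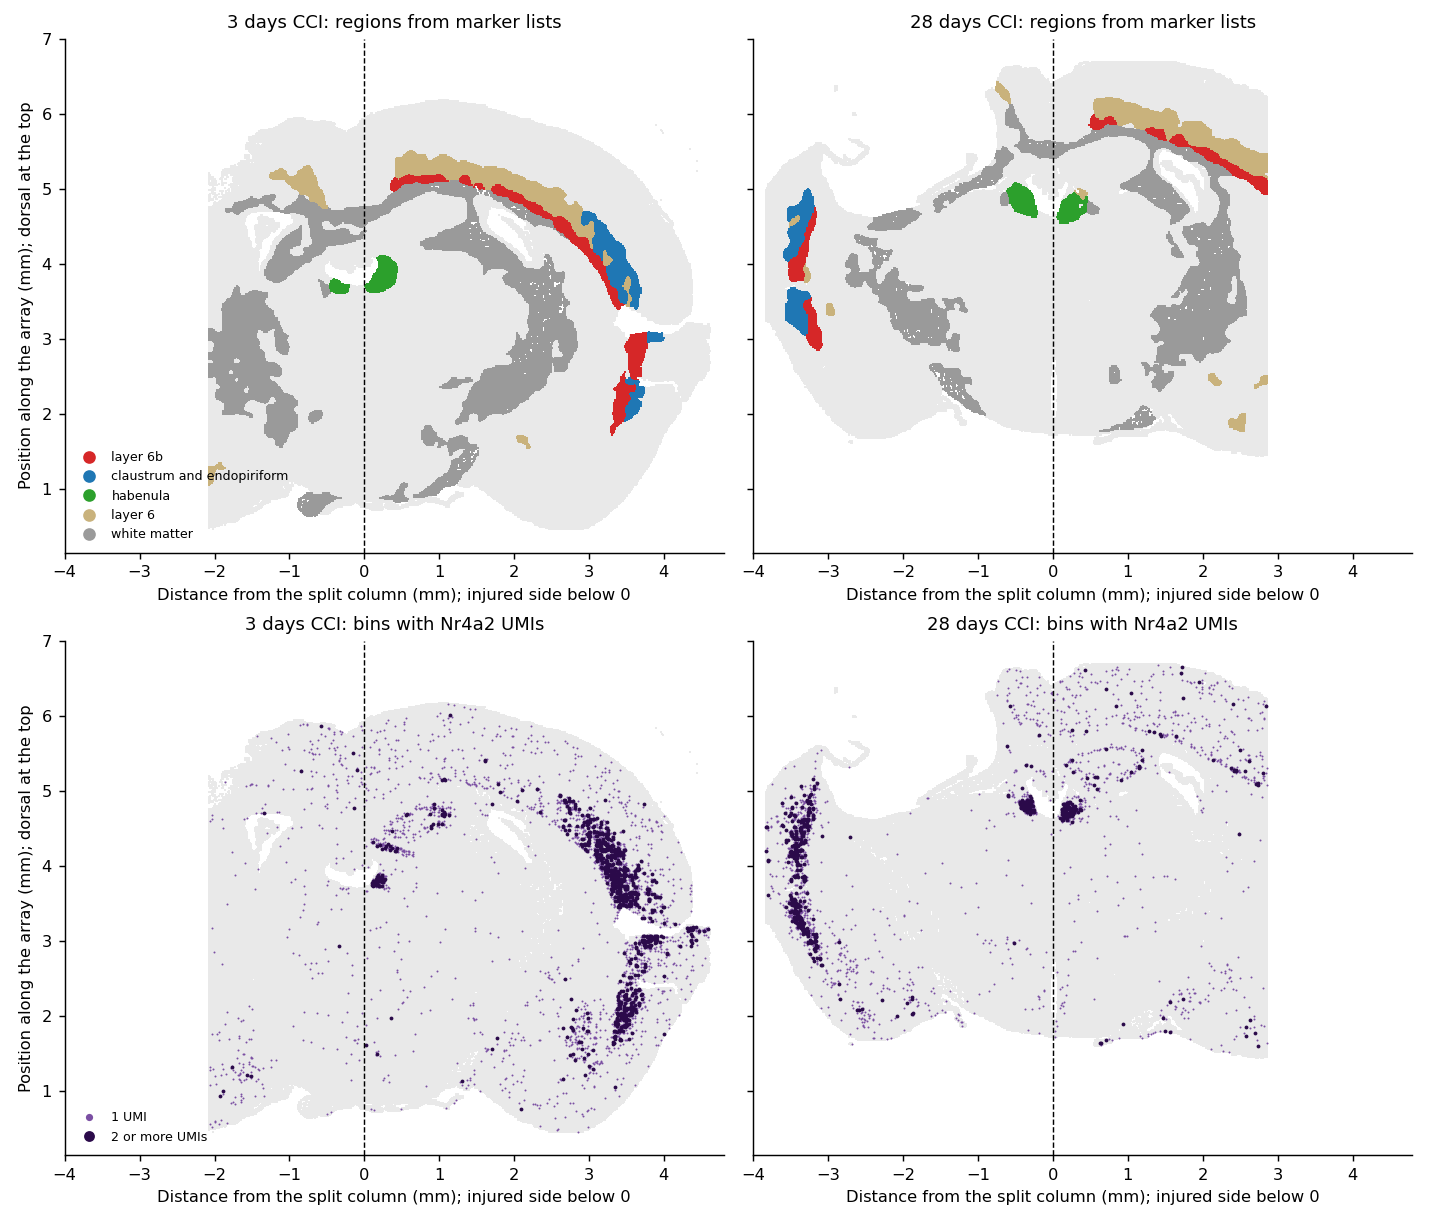
Maps of the 3-day section (left) and the 28-day section (right), with distance from the split column on the x axis (mm, injured side below 0) and position along the array on the y axis (mm, dorsal at the top). The upper maps colour bins by region and the lower maps show bins with 1 or with 2 or more Nr4a2 UMIs over the captured tissue in grey; the dense Nr4a2 band lies on the opposite side at 3 days and on the injured side at 28 days, in each case on the side that was captured beyond 2.86 mm.

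By level over both sides together, claustrum and endopiriform bins came first at both times, followed by layer 6b and then the habenula at 3 days and by the habenula and then layer 6b at 28 days. Nr4a2 stood at 775 CPM (738 to 814) in claustrum and endopiriform bins at 3 days and 659 CPM (617 to 705) at 28 days. In layer 6b it stood at 397 CPM (368 to 427) and 322 CPM (291 to 355). The habenula stood at 198 CPM (169 to 231) and 457 CPM (417 to 499). The pooled intervals of these 3 places did not overlap at either time. Levels within layer 6b and the habenula were uneven, as given below. The lateral part of layer 6b at 28 days, at 442 CPM (395 to 494), overlaps the habenula. Its nearer part at 3 days, at 172 CPM (137 to 213), overlaps the pooled habenula. Whether the order of layer 6b and the habenula follows from which parts were captured was not tested. A small patch scored by the claustrum markers away from layer 6b, 53 bins at 3 days, held 21 Nr4a2 UMIs at 288 CPM (178 to 440), and 72 such bins at 28 days held 0, where 3 counts are 71.9 CPM.

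Layer 6 stood at 116 CPM (106 to 127) at 3 days and 43.0 CPM (36.3 to 50.5) at 28 days, and layer 5 at 44.2 CPM and 19.5 CPM. These pooled levels also hold unequal amounts of lateral tissue. On the opposite side within the equal widths, layer 6 stood at 37.1 CPM and 36.0 CPM and layer 5 at 15.0 CPM and 14.6 CPM. Bins of the fibroblast and meninges markers stood at 21.2 CPM (16.8 to 26.5) and 50.4 CPM (39.6 to 63.1), the latter overlapping layer 6. CA2 and CA3 bins of the hippocampus were at 60.2 CPM (49.1 to 73.0) and 41.6 CPM (32.3 to 52.8). In the thalamus Nr4a2 was at 3.67 CPM (2.78 to 4.75) at 3 days and 4.13 CPM (3.02 to 5.51) at 28 days, the lowest value of the regions plotted at both times, with an interval that overlaps that of the striatum. Mean depth at 3 days was 760 UMIs per layer 6b bin, 1225 per claustrum bin and 1235 per habenula bin, within a range over the regions plotted from 415 in white matter to 1677 in CA2 and CA3.

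The region labels were assigned from marker genes that include those below. Their levels inside therefore describe the regions and are no independent check. Gnb4, a claustrum marker encoding a G protein beta subunit, was at 122 CPM in claustrum bins and 9.7 CPM elsewhere at 3 days, and at 93.8 CPM and 9.3 CPM at 28 days. Ccn2, a layer 6b marker encoding a matricellular growth factor, was at 801 CPM in layer 6b bins against 24.9 CPM elsewhere at 3 days, and at 615 CPM against 24.0 CPM at 28 days. Svil, a layer 6b marker named after its values were seen, was less separated. It was at 31.2 CPM against 15.6 CPM at 3 days and 22.9 CPM against 17.5 CPM at 28 days. Tac2, which encodes neurokinin B and marks the medial habenula, was at 918 CPM against 32.4 CPM at 3 days and 1099 CPM against 22.7 CPM at 28 days. The other habenula markers differed more between the sections. In habenula bins Nwd2 was at 483 CPM and 933 CPM, and Gpr151 at 147 CPM and 415 CPM. Chrnb4 and Pou4f1, named after their values were seen, were at 103 and 120 CPM at 3 days and 250 and 172 CPM at 28 days. Whether the habenula bins of the 2 sections hold the same part of the nucleus was not tested.

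**Figure D2:**
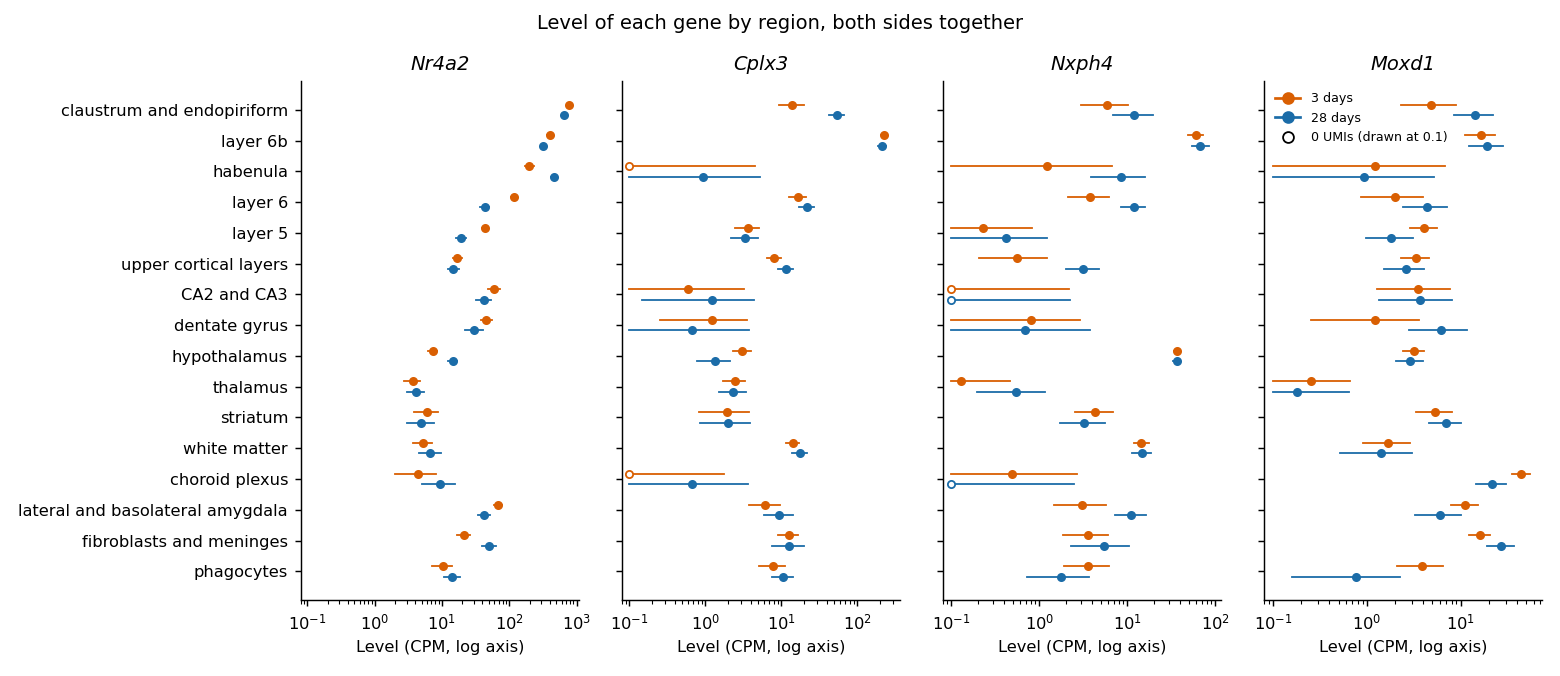
Level of each gene (CPM, log axis) in each region, both sides together, at 3 days (orange) and 28 days (blue), with exact 95% counting intervals as bars; open points are regions with 0 UMIs. Nr4a2 leads in claustrum and endopiriform bins at 775 and 659 CPM, Cplx3 in layer 6b bins at 227 and 212 CPM, and Moxd1 in choroid plexus bins at 44.1 CPM at 3 days.

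The 3 companion genes matched the name layer 6b unequally. Cplx3 had 415 UMIs in layer 6b at 3 days, 35.1% of its total (32.4 to 37.9), and 268 at 28 days, 30.4% (27.4 to 33.6), with 227 CPM (206 to 250) and 212 CPM (187 to 239). Its next highest cortical levels were 16.5 CPM and 21.6 CPM in layer 6, apart from 54.0 CPM (42.3 to 68.0) in claustrum bins at 28 days. Patches scored by the layer 6b markers but away from layer 6 and claustrum held 18 and 22 Cplx3 UMIs, at 96.5 CPM and 104 CPM. Of the regions plotted, Cplx3 thus had its highest level in layer 6b at both times, though most of its UMIs lay outside it.

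Of the regions plotted, Nxph4 also reached its highest level in layer 6b, 59.7 CPM (49.0 to 72.0) at 3 days and 68.0 CPM (54.4 to 84.0) at 28 days. That sheet held only 7.90% and 8.84% of its UMIs. Bins assigned by the hypothalamus markers held 51.6% (48.9 to 54.3) and 50.5% (47.3 to 53.7), at 37.0 CPM and 36.4 CPM. Nxph4 counts over a whole side are therefore mostly not layer 6b counts.

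Most Moxd1 UMIs lay outside layer 6b. It was at 16.4 CPM (11.1 to 23.5) there at 3 days and 19.0 CPM (12.2 to 28.2) at 28 days, from 30 and 24 UMIs. Choroid plexus bins, the epithelium that makes cerebrospinal fluid, were higher at 3 days, with 91 UMIs at 44.1 CPM (35.5 to 54.2), and stood at 21.3 CPM (14.6 to 30.1) at 28 days. Bins of the fibroblast and meninges markers were at 16.04 CPM (12.2 to 20.7) and 26.9 CPM (19.2 to 36.6), intervals that overlap those of layer 6b.

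A check on position that used no layer 6b gene gave the same place. Cortex dorsal of the white matter, within 2.08 mm of the split column, was cut into bands by distance from the white matter. On the opposite side Cplx3 was at 245 CPM (194 to 305) in the first 64 µm and 27.8 CPM (15.2 to 46.6) in the next 64 µm at 3 days, and at 289 CPM (235 to 351) and 19.9 CPM (9.54 to 36.6) at 28 days. Nr4a2 went from 122 CPM (87.5 to 167) to 37.7 CPM (22.7 to 58.9) at 3 days and from 112 CPM (79.4 to 153) to 51.7 CPM (33.8 to 75.8) at 28 days. Nxph4 went from 55.1 CPM and 48.6 CPM to 4.0 CPM at both times. Moxd1 went from 21.4 CPM (8.6 to 44.2) to 1.98 CPM (0.05 to 11.1) at 3 days and from 22.9 CPM (9.9 to 45.1) to 3.98 CPM (0.48 to 14.4) at 28 days, from 7 and 1 and from 8 and 2 UMIs, with intervals that overlap. All 4 genes had higher values next to the white matter than in the next band, and the 2 sections gave intervals that overlapped in both bands.

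On the injured side the first band was lower for Cplx3 at both times, and for Nr4a2 beyond the intervals at 3 days. At 3 days the first 64 µm held 8 Nr4a2 UMIs at 24.1 CPM (10.4 to 47.5), 17 Cplx3 UMIs at 51.2 CPM (29.8 to 82.0) and 5 Nxph4 UMIs at 15.1 CPM (4.89 to 35.2), each interval below that of the opposite side except for Nxph4, whose intervals overlap slightly. Of those bins, 54.0% lay in the lesion zone defined below. At 28 days the same band held 11 Nr4a2 UMIs at 50.3 CPM (25.1 to 89.97), 2 Cplx3 UMIs at 9.1 CPM (1.1 to 33.0) and 0 Nxph4 UMIs, where 3 counts, taken as the limit that a count of 0 allows, are 13.7 CPM. Moxd1 had 3 UMIs in this band at 3 days and 0 at 28 days, and in the next band at 28 days it had 9, at 14.6 CPM (6.7 to 27.6) against 3.98 CPM on the opposite side, with intervals that overlap. The Nr4a2 interval of the first band at 28 days overlaps that of the opposite side. In the next band at 28 days Nr4a2 was lower beyond the intervals. It had 8 UMIs there, at 12.9 CPM (5.6 to 25.5) against 51.7 CPM (33.8 to 75.8) on the opposite side. At 3 days the next band was at 25.7 CPM (12.8 to 45.9) against 37.7 CPM (22.7 to 58.9), with intervals that overlap. At 28 days the bands together held 2769 bins on the injured side and 7697 on the opposite side. A column without white matter bins adds none to them. No bin within 2.08 mm on the injured side was assigned to layer 6b at 3 days, and none within 2.86 mm at 28 days.

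**Figure D3:**
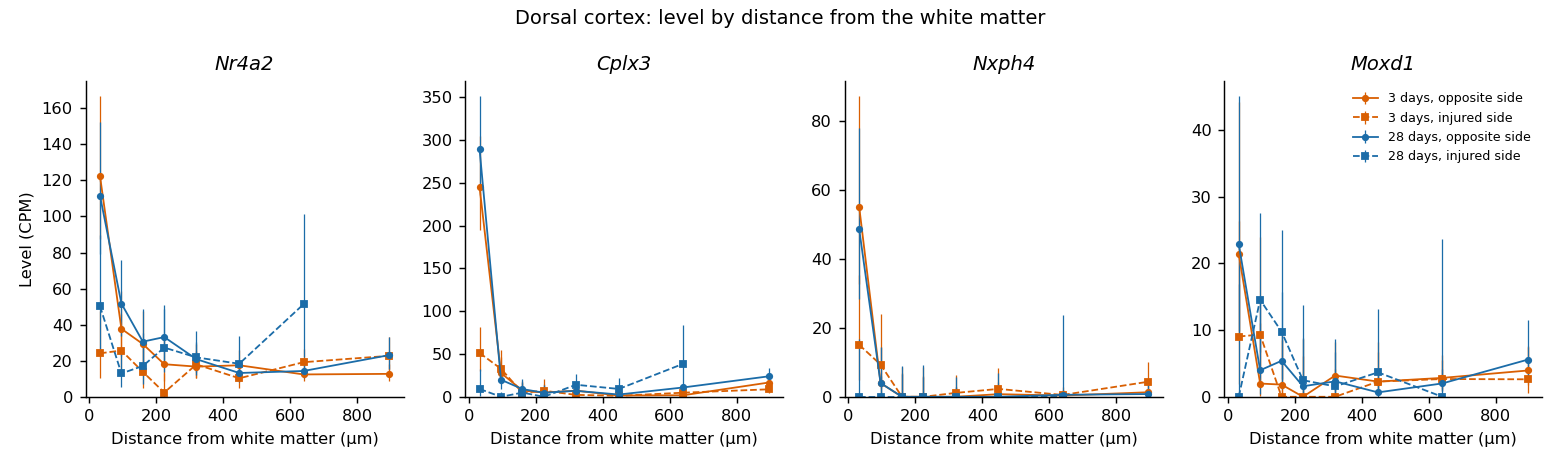
Level of each gene (CPM) by distance from the white matter (µm) in dorsal cortex within 2.08 mm of the split column, for the opposite side (solid lines, circles) and the injured side (dashed lines, squares) at 3 days (orange) and 28 days (blue); bars are exact 95% counting intervals. The opposite sides of both sections start high in the first band, Cplx3 at 245 and 289 CPM, and the injured sides start lower, at 51.2 and 9.1 CPM.

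Nr4a2 was not uniform along the length of layer 6b. On the opposite side at 3 days, layer 6b bins within 2.86 mm of the split column held 83 Nr4a2 UMIs at 172 CPM (137 to 213) and those farther out held 641 at 477 CPM (441 to 516), a log2 ratio of 1.47 (1.14 to 1.82). Within the nearer part, Nr4a2 was at 103 CPM (59.9 to 165) up to 1.5 mm, 115 CPM (57.4 to 206) from 1.5 to 2.08 mm and 248 CPM (187 to 323) from there to 2.86 mm. The level was thus higher toward the lateral end, where layer 6b runs beside the claustrum.

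At 28 days the near part was on the opposite side and the far part on the injured side. The near part held 91 Nr4a2 UMIs at 165 CPM (133 to 203) and the far part 316 at 442 CPM (395 to 494). Their intervals overlap those of the same distances at 3 days, although the far part was on the other side. The intervals of Cplx3 and Ccn2 in the far part did not overlap between the times, with Ccn2 at 832 CPM (784 to 883) at 3 days and 574 CPM (519 to 632) at 28 days. Gnb4, which marks the claustrum beside it, was at 43.4 CPM (29.5 to 61.6) in the far part and 9.1 CPM (3.0 to 21.2) in the near part at 28 days. Its part in the Nr4a2 level was not tested.

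Cplx3 in layer 6b was at 317 CPM (269 to 371) in the near part and 195 CPM (172 to 220) in the far part at 3 days, which is -0.70 (-0.99 to -0.40) as log2 of far over near. At 28 days Cplx3 stood at 311 CPM (266 to 361) on the near, opposite side and 136 CPM (110 to 166) on the far, injured side, a log2 ratio of -1.19 (-1.57 to -0.83). Within the near part the intervals of Cplx3 overlapped. At 3 days it was at 284 CPM (209 to 378) up to 1.5 mm, 241 CPM (152 to 361) from there to 2.08 mm and 374 CPM (298 to 464) from there to 2.86 mm, and at 28 days at 235 CPM (157 to 337), 404 CPM (288 to 553) and 312 CPM (255 to 378). At 3 days the ratio of far over near for Cplx3 changed sign to 0.50 when layer 6b was placed without Ccn2, and to 0.22 in UMIs per bin. Nxph4 was at 64.2 CPM (43.6 to 91.2) and 58.1 CPM (45.9 to 72.5) at 3 days, and at 83.6 CPM (61.2 to 112) and 56.0 CPM (40.0 to 76.2) at 28 days, with overlapping intervals.

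Read as a comparison of sides within layer 6b at 28 days, these values give Nr4a2 a log2 ratio of 1.41 (1.08 to 1.77) for injured over opposite, Cplx3 -1.19, Nxph4 -0.58 (-1.23 to 0.06) and Moxd1 -0.38 (-1.66 to 0.91, from 12 UMIs on each side). Of 4 genes, 1 was at least 2-fold higher and 1 at least 2-fold lower, where 1.48% and 3.6% of all genes with at least 200 UMIs were. Nxph4 and Moxd1 had fewer than 200. Nr4a2 was picked for a side ratio that holds these UMIs, so nothing is read from the share for it. All injured-side bins were lateral and all opposite-side bins were dorsal, so side and position cannot be told apart. When layer 6b was taken instead as dorsal cortex close to the white matter, the Nr4a2 ratio turned to -1.72.

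The whole captured sides gave the opposite ratios for which Nr4a2 was picked. At 3 days Nr4a2 was at 8.57 CPM on the injured side (322 UMIs) and 56.4 CPM on the opposite side (4678 UMIs), so that log2 of injured over opposite was -2.72 (-2.89 to -2.56). At 28 days the values were 57.1 CPM (2121 UMIs) and 23.0 CPM (1038 UMIs), a log2 ratio of 1.31 (1.21 to 1.42). It was the only 1 of the 4 genes at least 2-fold lower at 3 days, where 1.76% of all genes with at least 200 UMIs over both sides, called all genes in such shares, were lower and 7.11% higher by that much, and the only 1 at least 2-fold higher at 28 days, where 4.13% were higher and 0.218% lower. Because these ratios chose the gene, nothing is read from these shares.

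Most of the UMIs behind those ratios lay in lateral tissue that was captured on 1 side only. Beyond 2.86 mm lay 3501 of the 4678 opposite-side UMIs at 3 days (74.8%, 73.6 to 76.1) and 1517 of the 2121 injured-side UMIs at 28 days (71.5%, 69.5 to 73.4). Their median distance was 3.34 mm and 3.30 mm from the split column. No tissue was captured beyond 2.86 mm on the other side of either section. In the strip from 3.2 to 3.5 mm Nr4a2 stood at 226 CPM (215 to 238) on the opposite side at 3 days and 324 CPM (306 to 343) on the injured side at 28 days.

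**Figure D4:**
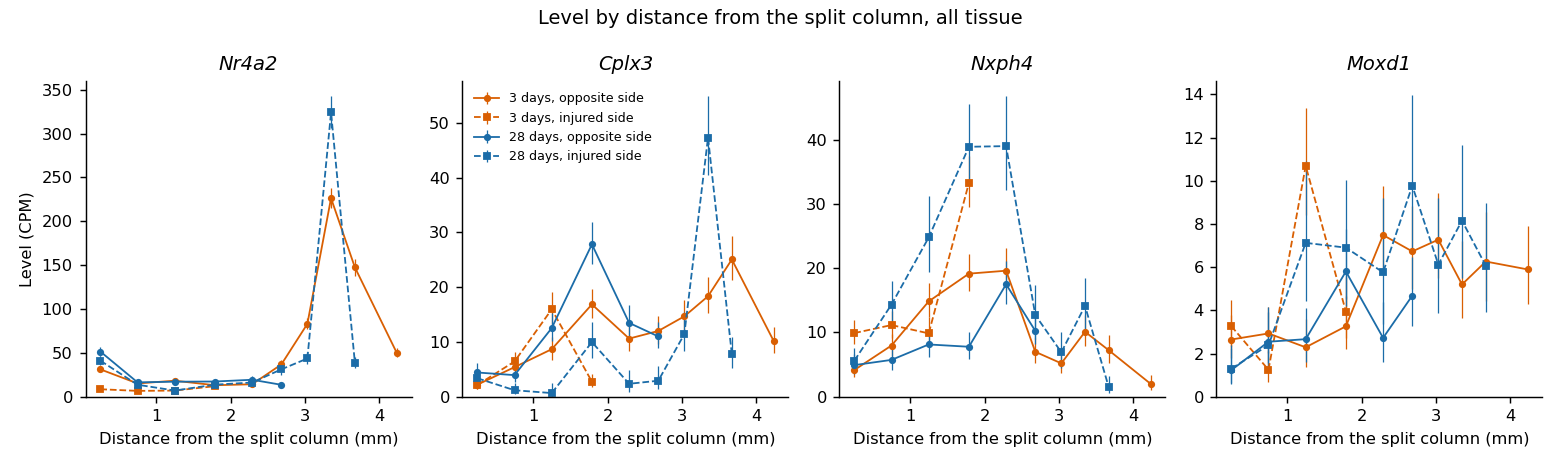
Level of each gene (CPM) over all captured tissue by distance from the split column (mm), for the opposite side (solid lines, circles) and the injured side (dashed lines, squares) at 3 days (orange) and 28 days (blue), with exact 95% counting intervals. Nr4a2 peaks between 3.2 and 3.5 mm on the 2 sides that reach that far, at 226 and 324 CPM, and the other 2 lines end before it.

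Over equal widths the opposite directions were no longer present. Within 2.08 mm at 3 days Nr4a2 was at 8.57 CPM on the injured and 19.98 CPM (793 UMIs) on the opposite side, or -1.22 (-1.41 to -1.03) as a log2 ratio. Within 2.86 mm at 28 days the values were 23.6 CPM (604 UMIs) and 23.0 CPM, or 0.04 (-0.11 to 0.19). In UMIs per bin the 28-day value was -0.31. Nr4a2 was the only 1 of the 4 genes past 2-fold at 3 days over this width, where 0.61% of all genes were lower and 4.1% higher on the injured side. These UMIs are part of those behind the ratio that chose Nr4a2, so nothing is read from these shares.

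The difference in Nr4a2 UMIs between the equal widths at 3 days lay mostly in hippocampus and habenula, in unequal numbers of bins. Habenula bins held 7 UMIs in 150 injured-side bins and 156 in 517 opposite-side bins. CA2 and CA3 bins held 102 opposite-side UMIs, and hippocampal bins scored by the amygdala markers 67. No bin of the injured side was assigned to either, so no level was compared there. Dentate gyrus bins held 6 UMIs at 5.5 CPM on the injured and 106 at 77.02 CPM on the opposite side. Layer 6 bins held 14 at 16.4 CPM and 59 at 37.1 CPM, while layer 5 bins were at 14.4 CPM and 15.0 CPM. The bins of the phagocyte markers, which mark microglia and macrophages, numbered 5368 on the injured side and 452 on the opposite side.

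The 28-day ratio near 0 held regions whose UMI counts differed in both directions, in unequal numbers of bins. Habenula bins held 227 of the 604 injured-side UMIs and 262 of the 1038 opposite-side UMIs. Layer 6 bins held 3 and 116, layer 6b bins 0 and 91, bins of the upper cortical layers 6 and 73, and CA2 and CA3 bins 5 and 63. By level layer 6 was at 26.7 CPM in 110 injured-side bins and 36.0 CPM in 2981 opposite-side bins. The upper cortical layers were at 9.57 CPM in 521 bins and 16.6 CPM in 2760. CA2 and CA3 ran the other way by level, at 55.5 CPM in 124 bins and 40.8 CPM in 1355. Hypothalamus bins held 123 and 71, at 15.2 CPM in 9809 bins and 13.1 CPM in 7024. Amygdala bins held 44 and 5, at 74.1 CPM in 800 bins and 8.12 CPM in 532.

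Over equal widths the other genes differed from one another. Cplx3 had a log2 ratio of -0.35 (-0.61 to -0.10) at 3 days and -1.78 (-2.13 to -1.46) at 28 days, when it stood at 12.0 CPM on the opposite and 3.48 CPM on the injured side and 0.702% of all genes were at least 2-fold lower. Moving the split column by 8 bins to lower columns turned the 3-day value to 0.10. Layer 6b accounted for 171 of the 543 opposite-side Cplx3 UMIs and no injured-side bin was layer 6b. Nxph4 was higher on the injured side, by 0.50 (0.32 to 0.68) at 3 days and 1.14 (0.95 to 1.34) at 28 days, where 4.87% of all genes were at least 2-fold higher. Of its injured-side UMIs at 28 days, 368 of 494 were in bins of the hypothalamus markers, which stood at 45.5 CPM against 22.7 CPM on the opposite side. Moxd1 was at 0.61 (0.26 to 0.98) and 0.48 (0.12 to 0.84). At 3 days choroid plexus bins held 72 of its 161 injured-side UMIs and 4 of its 111 opposite-side UMIs, in 866 and 154 bins.

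**Figure D5:**
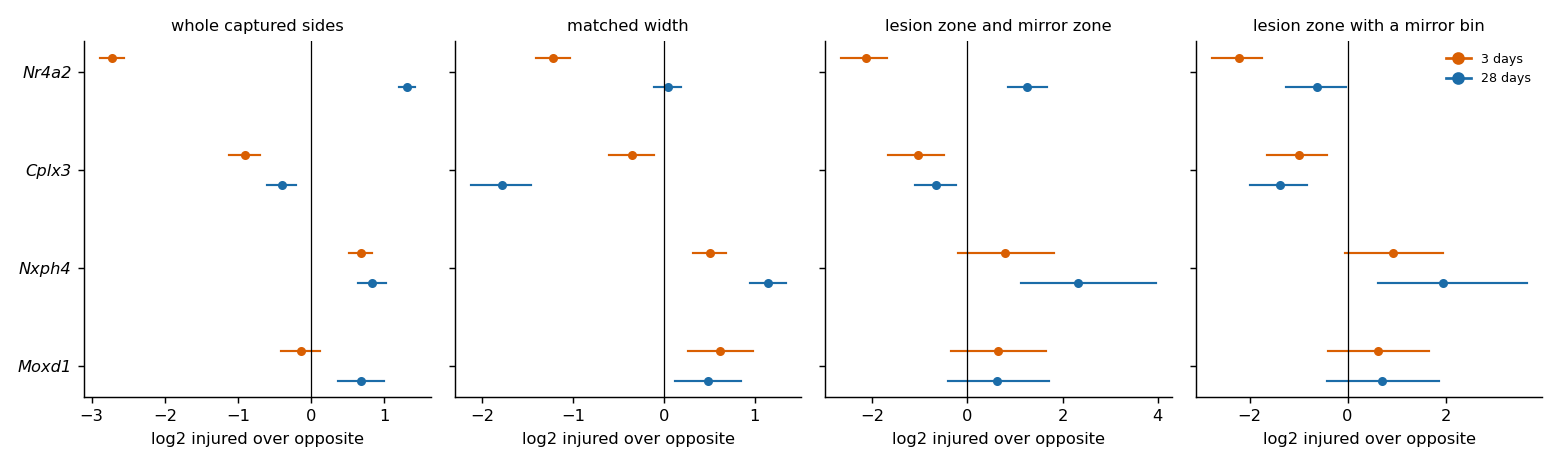
log2 ratio of CPM, injured over opposite, for each gene at 3 days (orange) and 28 days (blue) over the whole captured sides, over equal widths, over the lesion zone and its mirror zone, and over only those lesion-zone bins that have a mirror bin; bars are exact 95% intervals and each x axis has its own range. The 28-day Nr4a2 value moves from 1.31 to 0.04 with equal widths and from 1.25 to -0.63 with mirror bins only.

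The lesion zone was taken as injured-side tissue whose share of phagocyte UMIs passed the level that 99% of opposite-side tissue stays under, and its reflection across the split column was the mirror zone. At 3 days it held 43 Nr4a2 UMIs at 8.33 CPM and the mirror zone 270 at 37.1 CPM, a log2 ratio of -2.14 (-2.65 to -1.69). Mirror-zone UMIs lay in dentate gyrus bins (75), CA2 and CA3 bins (67), other hippocampal bins scored by the amygdala markers (50), layer 6 (39) and layer 6b (16). Cplx3 was also lower, 34 UMIs against 100, at -1.05 (-1.67 to -0.49). Over zone bins with a mirror bin Cplx3 was at -0.999 (-1.64 to -0.43). Nr4a2 was at least 2-fold lower, where 8.41% of all genes with at least 200 UMIs were lower and 11.2% higher. The zone lies within the sides whose ratio chose Nr4a2, so nothing is read from these shares. The other 3 genes had fewer than 200 UMIs here and fall outside that share.

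At 28 days the zone held 176 Nr4a2 UMIs at 24.6 CPM and the mirror zone 76 at 10.3 CPM, a log2 ratio of 1.25 (0.86 to 1.66). Nr4a2 was at least 2-fold higher, where 10.6% of all genes with at least 200 UMIs were higher and 7.62% lower. Here too nothing is read from these shares for Nr4a2. Nxph4, with 31 and 6 UMIs and a log2 ratio of 2.32 (1.13 to 3.97), had too few for that share. Claustrum bins supplied 77 of the 176 UMIs, phagocyte-marker bins 56 and layer 6b bins 14. The zone bins without a captured mirror bin, 1812 of 13559, held 142 of the 176. In the bins with a mirror bin 34 UMIs stood against 76, a log2 ratio of -0.63 (-1.27 to -0.04). Markers of other regions also differed over these bins. The striatum markers had a median log2 ratio of -2.93 at 28 days and 2.58 at 3 days. The thalamus markers had -0.89 and -2.35, beside -0.08 and 0.05 over all genes. Whether the zone and its reflection hold the same tissue was not tested at either time. Cplx3 was lower in the zone, at -0.66 (-1.09 to -0.24), and at -1.37 (-1.99 to -0.82) in the bins with a mirror bin. Nxph4 kept a ratio above 0 there, 1.95 (0.62 to 3.66), from 17 and 6 UMIs.

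Claustrum on the injured side at 28 days carried Nr4a2 at 659 CPM within 1248 bins, of which 142 were in the lesion zone. Those 142 bins held Nr4a2 at 451 CPM (356 to 564). The summed level of the 6 phagocyte markers was 170 CPM (149 to 194) over the whole region, against 53.4 CPM (43.9 to 64.4) in the opposite claustrum at 3 days. All 6 were detected at 28 days, and 5 of 6 at 3 days, when Lgals3 was at 0. Their part in the difference between 775 and 659 CPM was not tested.

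The habenula was captured on both sides of both sections. At 28 days Nr4a2 stood at 414 CPM (227 UMIs) on the injured and 502 CPM (262 UMIs) on the opposite side, a log2 ratio of -0.28 (-0.54 to -0.02). Tac2 was at 1153 CPM and 1042 CPM in the same bins. At 3 days Nr4a2 had 7 UMIs at 37.5 CPM on the injured and 156 at 245 CPM on the opposite side, a log2 ratio of -2.61 (-4.05 to -1.63), in 150 and 517 bins. Tac2 was also lower there, at 316 CPM against 1095 CPM, and moving the split column by 8 bins to higher columns left -1.02 for Nr4a2. Whether the 2 patches hold the same part of the nucleus at 3 days was not tested.

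The other genes of the NR4A family were also followed. Nr4a1 and Nr4a3, both early response genes, were at 190 CPM (172 to 210) and 37.9 CPM (30.0 to 47.3) in claustrum bins at 3 days, and at 77.3 CPM (63.1 to 93.7) and 27.8 CPM (19.5 to 38.3) at 28 days. Over the whole captured sides both were lower on the injured side at both times. For Nr4a1, log2 of injured over opposite came to -0.76 (-0.83 to -0.70) in the 3-day section and -0.65 (-0.72 to -0.58) in the 28-day section. Nr4a3 had -1.60 (-1.81 to -1.40) and -0.48 (-0.66 to -0.30). Over equal widths Nr4a1 had -0.35 (-0.43 to -0.28) and -0.77 (-0.85 to -0.69), and Nr4a3 -1.63 (-1.86 to -1.42) and -0.57 (-0.78 to -0.37). Neither gene changed sign between the times. Nr4a2 was picked for its change of sign over the whole sides, so nothing is read from that contrast. The products of the 3 RXR genes pair with NR4A receptors. Over the whole sides their median log2 ratio was -0.03 at 3 days and 0.15 at 28 days, beside 0.11 and 0.02 over all genes. Over equal widths it was 0.25 and 0.36, beside 0.07 and 0.06 over all genes. None of the 3 was past 2-fold over either width.

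Of 11 immediate early genes, which neurons switch on within minutes of activity, 1 was at least 2-fold lower and 2 at least 2-fold higher on the whole injured side at 3 days, where 1.76% of all genes were lower and 7.11% higher. At 28 days 1 was lower and 0 higher, where 0.218% and 4.13% of all genes were. Their medians were 0.23 and -0.08. Over equal widths 1 was lower and 3 higher at 3 days, where 0.61% and 4.1% of all genes were. At 28 days 1 was lower and 0 higher, where 0.702% and 4.87% were. The equal-width medians were 0.44 and -0.11. In the lesion zone against its mirror zone, 4 of the 9 with at least 200 UMIs were at least 2-fold higher and 1 lower at 3 days, with a median of 0.84 beside 0.06 over all genes, and 2 of 8 were higher and 1 lower at 28 days, with a median of 0.40 beside -0.07. There 11.2% of all genes were at least 2-fold higher and 8.41% lower at 3 days, and 10.6% and 7.62% at 28 days. The list did not move as 1 group. Egr1 and Arc, its 2 genes with the most UMIs, were lower in the zone, at -0.39 and -0.53 at 3 days and -0.26 and -1.35 at 28 days. Genes of midbrain dopamine neurons, where Nr4a2 is required, made up another list. Aldh1a1, an aldehyde dehydrogenase, had 20389 UMIs at 3 days and 16000 at 28 days, Ddc, which makes dopamine from L-DOPA, 1736 and 1301, and Th, the rate-limiting enzyme of dopamine synthesis, 1002 and 679. Slc6a3, the dopamine transporter, had 17 and 21, Pitx3 had 8 and 7, and En1 had 8 and 12. The last 3 were named after their counts were seen. Of the 4 genes of the list with at least 200 UMIs over the whole sides, 2 were at least 2-fold higher on the injured side at 3 days and none was past 2-fold at 28 days. Over equal widths 0 of the 4 were past 2-fold at either time, and their median log2 ratio at 3 days was 0.14 in place of 0.80.

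In claustrum bins Aldh1a1 was at 160 CPM (143 to 179) at 3 days and 114 CPM (96.6 to 134) at 28 days, and it was higher in the claustrum bins with an Nr4a2 UMI, by 0.68 (0.35 to 1.02) and 0.58 (0.10 to 1.06) on the log2 scale. In layer 6b it was lower in the bins with Nr4a2, with log2 ratios of -0.77 (-1.54 to -0.11) and -0.91 (-1.84 to -0.15). Th was at 1.5 CPM (0.3 to 4.3) in claustrum bins at 3 days and 4.5 CPM (1.7 to 9.8) at 28 days. In the habenula its few UMIs lay mostly in bins with Nr4a2, 5 against 1 at 3 days and 26 against 1 at 28 days, the latter a log2 ratio of 4.38 (2.33 to 10.3).

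Within claustrum bins, those with an Nr4a2 UMI were richer in most of the claustrum markers. These markers also placed the region, so this is a description and no independent check of it. At 3 days 790 of the 1680 bins had at least 1 Nr4a2 UMI, and at 28 days 500 of 1248. Gnb4 was higher in them by 1.198 (0.80 to 1.62) and 1.61 (1.05 to 2.22) on the log2 scale. Lxn, a carboxypeptidase inhibitor, was higher by 1.15 (0.75 to 1.56) and 1.08 (0.59 to 1.59), and Oprk1, the kappa opioid receptor, by 1.42 (0.79 to 2.12) and 1.40 (0.61 to 2.29). Car3, a carbonic anhydrase, was higher by 1.85 (0.84 to 3.15) at 3 days, and at 28 days it had 9 UMIs against 8, at 0.47 (-1.06 to 2.06). Tmem163, a layer 6b marker named after its values were seen, was higher by 1.18 (0.66 to 1.75) and 2.46 (1.40 to 3.84). Nr4a1 differed by 0.13 (-0.16 to 0.42) at 3 days and 1.02 (0.43 to 1.64) at 28 days. These bins were also deeper, with a mean of 1378 against 1090 UMIs at 3 days.

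In layer 6b the bins with Nr4a2 were not richer in Cplx3 over both of its parts. At 3 days Cplx3 was at 166 CPM in the 480 bins with Nr4a2 and 255 CPM in the 1921 without, a difference of -0.61 (-0.97 to -0.28), and at 28 days at 196 CPM and 217 CPM, a difference of -0.13 (-0.58 to 0.28). Of the 480 bins with Nr4a2 at 3 days, 408 were in the far part. In the 3-day section Cplx3 differed by -0.52 (-0.93 to -0.14) within the far part and -0.06 (-0.98 to 0.67) within the near part. In the 28-day section the differences were -0.31 (-1.04 to 0.34) and 0.56 (-0.04 to 1.09). Over both parts Nxph4 differed by -0.36 (-1.05 to 0.26) and 0.04 (-0.76 to 0.75). Ccn2 was higher in the bins with Nr4a2, by 0.36 (0.20 to 0.52) and 0.51 (0.28 to 0.73). Gnb4, the claustrum marker, was also higher in them, by 1.64 (0.70 to 2.64) at 3 days, and stood at 1.02 (-0.08 to 2.03) at 28 days. Tmem163 was higher by 1.06 (0.41 to 1.69) and 1.09 (0.38 to 1.77). Ccn2 and Tmem163 are among the markers that placed layer 6b. The bins with Nr4a2 averaged 1179 UMIs and those without 656 at 3 days.

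Across tiles of 8 by 8 bins, Nr4a2 was most like Neurod6 (mean Pearson r over both sections 0.48), Neurod2 (0.44), Vxn (0.43), Tbr1 (0.43) and Prss12 (0.43). Neurod6, Neurod2 and Tbr1 encode transcription factors of forebrain excitatory neurons. Its r with Cplx3 was 0.27 and with Nxph4 0.11. Cplx3 was most like Nxph3 (0.39), another neurexophilin, Ccn2 (0.33), Hs3st4 (0.33) and Tmem178 (0.32). Nxph4 was most like Baiap3 (0.41), Nos1 (0.39), AW551984 (0.38), Hap1 (0.37) and Gng4 (0.37), of which Baiap3 and Hap1 are in the hypothalamus list. Moxd1 was most like Ccn2 (0.27), Igfbp4 (0.26), Kcnj13 (0.24), Ccn3 (0.23) and Kl (0.22), of which Ccn2 is a layer 6b marker and Kcnj13 and Kl are choroid plexus markers. These are descriptions over 1989 tiles at 3 days and 1744 at 28 days that share a library and differ in depth.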

How the data were processed

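The deposited counts are whole UMIs per gene and 16 µm bin, made by the authors with Space Ranger 4.0.1 (per the file headers) from a mouse probe set, on build mm10 per the submitters' notes. Bins with at least 100 UMIs were kept, which left out 1.93% of bins at 3 days and 2.15% at 28 days. Both times are 1 section each, so no test was fitted and values carry exact Poisson, Clopper-Pearson or conditional binomial 95% intervals, which cover counting error only. Ratios used CPM with 0.5 UMI added, and background shares used genes with at least 200 UMIs over both groups.

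Regions came from lists of marker genes that exclude the genes described. Counts were smoothed with a Gaussian of 3 bins, each list was scored as the mean log2 of observed over expected UMIs and scaled to its own upper tail, and a bin joined the list with the highest score of at least 0.3, in patches of at least 50 bins. Layer 6b patches had to lie within 5 bins of layer 6 or claustrum, claustrum patches within 5 bins of layer 6b, and habenula within 1 mm of the split column. These rules of position were set after maps of the regions were seen. Smim32, Ntng2, Slc18a2 and Nrxn3 were not used here. Genes were named by a rule: the 4 genes, up to 3 genes per list with the most UMIs, and the 5 genes most like each in log2(CPM + 10) over tiles with at least 2000 UMIs, of 11580 genes with at least 500 UMIs per section. For Cplx3, 1 of these 5 is not reported here. The genes and lists were chosen with earlier results of these data known. Gene positions are from GENCODE M21, matched by identifier for 4 of 4 genes. The ratio step and the scoring of regions were tested on simulated data. The rules of position were not part of that test. Python 3.11.15 with numpy 2.4.6 and scipy 1.17.1 was used.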

Additional observations from a re-analysis of the deposited data

Results flagged for a closer look

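The Nr4a2 ratio of injured over opposite side had opposite signs at the 2 times, with counting intervals on either side of 0: -2.72 at 3 days and 1.31 at 28 days on the log2 scale over the whole captured sides. Nr4a2 was picked for this difference. The lesion zone against its mirror zone gave -2.14 at 3 days and 1.25 at 28 days. With 1 section per time, the difference between the times was not tested. Beside these values stand the equal-width ratios of -1.22 and 0.04, and the ratios over zone bins with a mirror bin of -2.22 and -0.63. Neither of these comparisons was matched by region.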

How the results depend on the processing

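Of 328 values recomputed under another choice, 283 stayed within the counting interval of the reported value, 40 moved outside it and 5 changed sign, counted where the reported interval leaves out 0. Equal widths moved the Nr4a2 side ratio to -1.22 at 3 days and 0.0404 at 28 days. UMIs per bin in place of CPM gave 1.15 for the side ratio and -0.31 for the equal-width ratio at 28 days, whose reported interval holds 0, -2.75 for the lesion-zone ratio at 3 days, and 2.38 for Nr4a2 in lateral over dorsal layer 6b at 3 days, where Cplx3 changed sign to 0.22. Placing layer 6b without Ccn2 gave 2.14 for Nr4a2 and 0.50, a change of sign, for Cplx3 in that ratio at 3 days. A border at 2.5 mm gave Nr4a2 1.07 at 28 days. Wider smoothing gave Nr4a2 shares of 16.6% in layer 6b and 34.2% in claustrum at 3 days, and 30.3% in claustrum at 28 days, and the stricter lowest score gave 13.3% in layer 6b at 3 days. Taking layer 6b as dorsal cortex near the white matter, which leaves out its lateral part by construction, gave shares of 1.56% and 2.66% and a 28-day ratio of -1.72, a change of sign. Zone bins with a mirror bin gave -0.63 at 28 days, also a change of sign. Moving the split column gave -1.02 for the habenula at 3 days and 0.10 for the equal-width Cplx3 ratio at 3 days, a change of sign. Where no construction is named, the cause was not tested. Setting the median of all genes to 0 shifted the 3-day side ratios by 0.11 and changed no sign.

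The layer 6b ratio could not be given at 3 days, when no injured-side bin was layer 6b. The alternatives for the equal-width, habenula and lateral over dorsal ratios, and the comparison of layer 6b bins within its near and far parts, were chosen after seeing the data. No paired analysis was possible because each time is 1 section. Of the 5 genes most like each gene, 3 were shared by larger tiles for Nr4a2, Cplx3 and Nxph4 and 4 for Moxd1.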
